A study of Homo sapiens with 12 samples.

Results

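The step from day 0 to day 4 of neural differentiation was examined in libraries labelled SOX21-/-, made from H9 human embryonic stem cells. It is covered by 4 of the 12 RNA-seq libraries of the series. The labels call the 2 libraries of day 0 human embryonic stem cells and the 2 of day 4 neural progenitor cells derived from them. At each day 1 library came from a line or sample called S13 and 1 from S23. The other 8 libraries are 2 wild-type H9 libraries at each of days 0, 4 and 8 and the 2 SOX21-/- libraries of day 8. All groups share the H9 background, and no other allele or agent is named for any of them. Whether S13 and S23 are separate clones is not said, so a p-value below reflects the spread among the deposited libraries alone, which may be technical. Levels are in TPM (transcripts per 1000000 transcripts), rescaled so that the 19804 nuclear protein-coding genes sum to 1000000 in each library. Of these genes 14809 reached 1 TPM in at least 2 of the 12 libraries and were tested. Fold changes are on the scale log2(TPM + 1), and a gene is called where the Benjamini-Hochberg adjusted p of limma is under 0.05. In each pair of SOX21-/- values below S13 stands before S23, in each pair of wild-type values replicate 1 before replicate 2, and a change "from" 1 pair "to" another is from day 0 to day 4.

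Pluripotent stem cells hold their state through a small circuit of transcription factors around POU5F1, NANOG and SOX2, fed by FGF and Nodal signals. When Nodal and BMP signals are withdrawn or blocked, the epithelium turns into neural plate. The pluripotency circuit is shut, PAX6 and OTX2 mark the anterior neural plate, and E-cadherin gives way to N-cadherin. WNT signals then set the position along the front-to-back axis, low at the rostral tip that forms telencephalon and eye field and higher in caudal forebrain, midbrain and hindbrain. SOX21, a SOXB2 transcription factor, is expressed in neural progenitors, and the title of the series places it upstream of WNT8B, a WNT ligand of the medial and caudal forebrain.

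The day 0 libraries stood apart from those of day 4 in their makeup, in both genotypes. Nuclear protein-coding genes held 56.3% and 56.4% of the deposited TPM at day 0 and 86.8% and 87.1% at day 4. Processed pseudogenes held 11.1% and 12.4% at day 0 against 0.454% and 0.477%, and mitochondrial tRNAs 8.40% and 8.28% against 0.0608% and 0.0632%. Rescaling multiplied the deposited values by 1.77 at day 0 and by 1.15 at day 4. Antisense genes whose exons overlap a protein-coding gene (2945 genes) summed to 12313 and 12549 TPM at day 0 and 6722 and 7468 TPM at day 4. These sums are of deposited TPM, before rescaling. The labels name 3 sequencing formats without saying which library had which, so day and library preparation cannot be told apart in any result below. Read depth is unknown from TPM, and none of the sources says whether quantification used strand, so genes that overlap another gene are uncertain. Within a day the S13 and S23 libraries had a Pearson correlation of 0.983 across genes. In bulk RNA fewer cells of a type and less RNA per cell cannot be told apart.

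SOX21 itself (chr13:94709622-94712399, minus strand, GRCh38) was measured at 2.87 and 3.27 TPM at day 0 and 186 and 164 TPM at day 4 in the libraries labelled SOX21-/-. The wild-type libraries had 2.26 and 2.48 TPM at day 0 and 179.9 and 192 TPM at day 4. The rise in the SOX21-/- libraries was called (log2 fold change 5.44, SE 0.42, limma adjusted p = 1.71e-06). Its size was not called different from that in wild type (difference -0.36, SE 0.60, limma adjusted p = 0.834). At day 8 the libraries labelled SOX21-/- held 293 and 82.3 TPM and those of wild type 150.1 and 119.7 TPM, so that S13 lay above both wild-type values and S23 below both. The mRNA level therefore does not bear out the label at day 4, and a gene-level TPM cannot show whether the coding sequence is intact. The group is called SOX21-/- below as the labels have it.

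Between day 0 and day 4, 6832 genes were called higher and 3192 lower, which is 67.7% of the genes tested (46.1% higher, 21.6% lower). The median log2 fold change over all genes tested was 0.42. At least 4-fold changes were called for 638 genes upward (4.31%) and 804 downward (5.43%). For 12223 genes (82.5%) both libraries of one day lay outside the range of the other day. The balance of directions depends on the scaling: median-of-ratios scaling gave 4612 higher and 4855 lower, and quantile normalization 5454 and 4003. The counts for each gene list below are to be read against these backgrounds. In the next step, which shares the day 4 libraries, 3891 genes were called higher (26.3%) and 1628 lower (11%), together 37.3%. Among 4891 long noncoding genes, fitted separately, 37.5% were called from day 0 to day 4. Among the 15 largest increases was DLK1, an imprinted non-canonical NOTCH ligand (1.35 and 0.746 to 301 and 366 TPM). DBX1, a homeobox factor of the diencephalon and spinal cord, went from 0.0714 and 0 to 128 and 199 TPM. GREB1L went from 0.907 and 0.251 to 189 and 240.3 TPM. PRTG (protogenin), a membrane protein of the early neural tube, rose from 3.94 and 3.53 to 448 and 444 TPM. SMOC1, a secreted BMP modulator, rose from 1.16 and 1.06 to 122 and 184 TPM. CNTN2, an axonal adhesion molecule, rose from 1.85 and 1.95 to 101 and 189.8 TPM. PAMR1 (5.49 and 2.58 to 258 and 323 TPM) and LIX1 (0.171 and 0.286 to 75 and 69.8 TPM) were also among them. In these 8 genes both day 0 libraries stood far below both day 4 libraries. The rule that named them required days that do not overlap, so this separation is not a separate result. ATP6V1G2-DDX39B, a readthrough gene that overlaps its 2 parts on the same strand, was also in this group and its value (log2 fold change 6.50) is uncertain.

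Of the 15 largest decreases, 8 were in genes that share exonic bases with another gene on their own strand: TDGF1, RP11-1012A1.4, HHLA1, AC104534.3, RP11-603J24.9, LUZP6, RP11-77K12.1 and PIGY. LUZP6, for example, shares its exon with MTPN and was listed at 468 and 455 TPM at day 0 and 10.2 and 0 TPM at day 4. RARRES2 (chemerin), a secreted chemoattractant without such an overlap, fell from 315 and 339 to 1.73 and 2.19 TPM. CALB1, a calcium-binding protein, fell from 196 and 209 to 0.963 and 0.832 TPM. SCNN1A, an epithelial sodium channel subunit, fell from 135 and 116 to 0.263 and 0.216 TPM. RBM47, an RNA-binding protein of epithelia, fell from 175 and 267 to 1.25 and 1.09 TPM. MT1G, a metallothionein, had 114 and 258 TPM at day 0 and 0 and 1.5 TPM at day 4. It belongs to a family of near-identical copies among which reads may be divided.

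**Figure D1:**
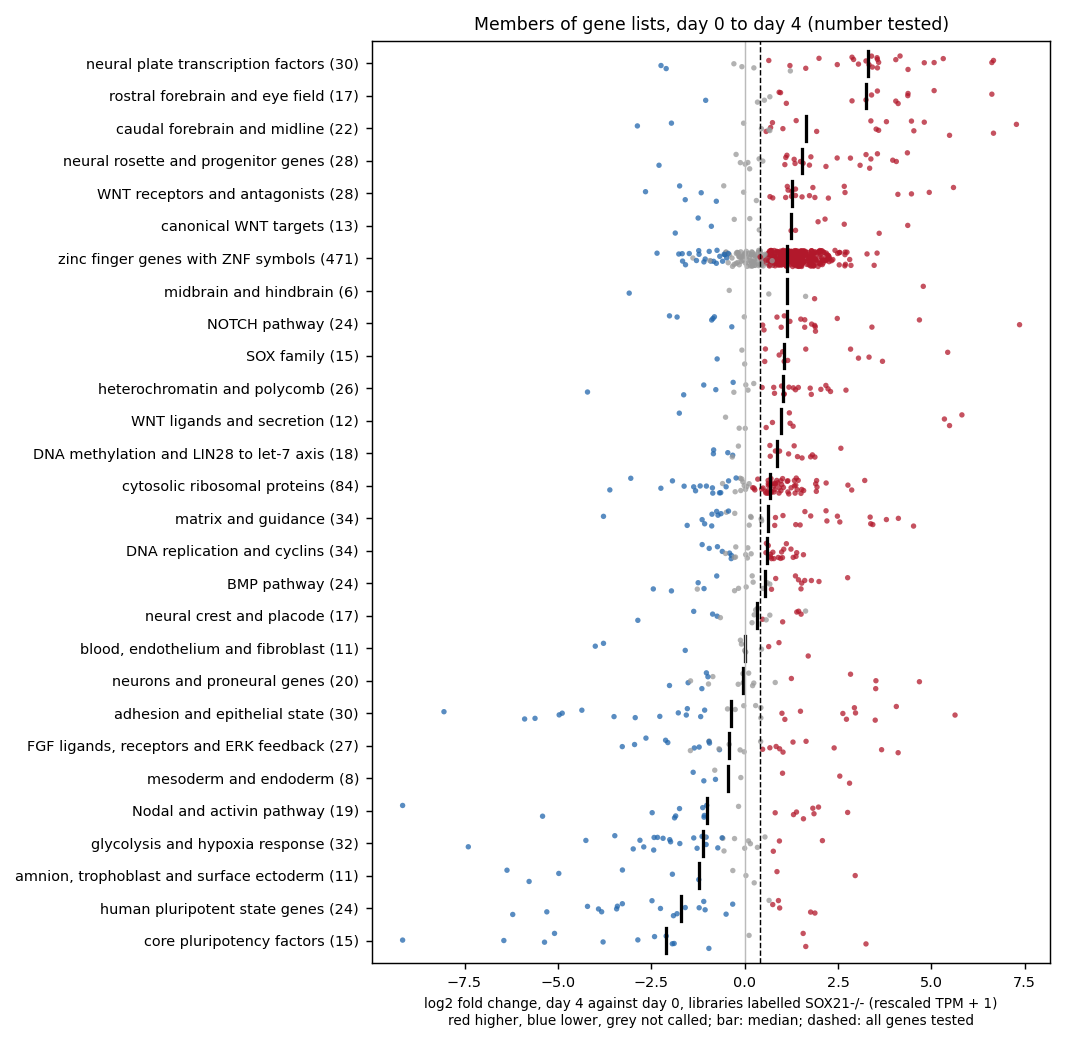
Log2 fold change from day 0 to day 4 (x axis, log2 of rescaled TPM + 1) for every tested member of each gene list (rows) in the libraries labelled SOX21-/-. Each point is a gene, red if called higher, blue if called lower and grey if not called; the bar is the list's median and the dashed line the median of all genes tested, 0.42. Neural plate factors have a median of 3.29 and core pluripotency factors one of -2.10; the balance of calls turned over under another scaling or gene selection for the Nodal, FGF, WNT target, DNA replication, ribosomal protein and neuron lists and for the lists of neural crest, mesoderm, amnion and blood.

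Most of the core pluripotency factors were called lower. Of 15 tested, 3 were called higher, 11 were called lower and 1 was not called (median -2.10; of all genes tested 21.6% were called lower). POU5F1 (OCT4), the central pluripotency factor, had 2675 and 2979 TPM at day 0 and 27.9 and 35.2 TPM at day 4 (log2 fold change -6.45, SE 0.30, limma adjusted p = 6.16e-08). NANOG had 42.2 and 31.9 TPM at day 0 and 0.0917 and 0.119 TPM at day 4 (log2 fold change -5.09, SE 0.20, limma adjusted p = 1.90e-08). ZSCAN10, a stem-cell zinc finger factor, had 455 and 400.1 TPM at day 0 and 9.17 and 9.67 TPM at day 4 (log2 fold change -5.36, SE 0.19, limma adjusted p = 1.11e-08). TDGF1 (CRIPTO), the Nodal co-receptor, had the lowest fold change of all 14809 genes. Its levels were 725 and 618 TPM at day 0 and 0.0397 and 0.325 TPM at day 4 (log2 fold change -9.16, SE 0.19, limma adjusted p = 8.40e-10), and a gene on the same strand shares part of its exons. In each of these 4 genes the day 4 values lay far below both day 0 values.

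The 3 core factors called higher were OTX2, SOX2 and SALL4, of which OTX2 and SOX2 are also expressed in anterior neural plate. OTX2 rose from 37.2 and 49.1 to 294 and 584 TPM (log2 fold change 3.25). SOX2 rose from 123 and 129 to 335 and 463 TPM (log2 fold change 1.64). SALL4 rose from 56.3 and 42.4 to 115 and 187 TPM (log2 fold change 1.57). KLF4, a factor of naive pluripotency, was not called at 1.26 and 0.962 TPM at day 0 and 1.45 and 1.13 TPM at day 4. Of 24 genes listed for the human pluripotent state, 5 were called higher, 18 were called lower and 1 was not called (median -1.70). SCGB3A2, a secretoglobin, fell from 714 and 795 to 9.43 and 8.95 TPM. CD9, a tetraspanin of the stem cell surface, fell from 139 and 151 to 2.81 and 2.63 TPM. L1TD1, an RNA-binding protein derived from a retrotransposon, fell from 119 and 115 to 9.72 and 4.7 TPM. L1TD1 overlaps another gene on its strand. GAL (galanin) fell from 46.3 and 39.2 to 1.9 and 2.25 TPM. The 5 called higher include both LIN28 genes, TERT, ALPL and SFRP2, and thus the decrease did not extend to every gene of the list.

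Most neural plate transcription factors were called higher. Of 30 tested, 24 were called higher, 2 were called lower and 4 were not called, with a median of 3.29. The rise was at least 4-fold for 20, against 4.31% of all genes tested. LHX5, a LIM homeobox factor of the forebrain, had 0.33 and 0.209 TPM at day 0 and 102 and 159 TPM at day 4 (log2 fold change 6.66, SE 0.23, limma adjusted p = 1.11e-08). PAX6, which marks the human neural plate, had 0.576 and 0.223 TPM at day 0 and 108 and 171 TPM at day 4 (log2 fold change 6.62, SE 0.22, limma adjusted p = 8.07e-09). OTX1, an anterior homeobox factor, had 0.539 and 0.614 TPM at day 0 and 40.4 and 94.3 TPM at day 4 (log2 fold change 5.32, SE 0.32, limma adjusted p = 3.19e-07). All 3 genes were under 1 TPM in both day 0 libraries and higher in S23 than in S13 at day 4. TCF7L1, a repressor of WNT target genes that pluripotent cells also express, fell from 92.3 and 81.6 to 17.6 and 17.6 TPM. SOX3 (18.7 and 15.6 to 17 and 15.4 TPM) and ZIC2 (287 and 219 to 179.9 and 235 TPM) were not called.

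Genes of neural rosettes and progenitors followed with 20 called higher, 1 called lower and 7 not called among 28 tested (median 1.53). PTN (pleiotrophin), a secreted growth factor, went from 27.3 and 28.2 to 882 and 392 TPM, and S13 was the higher line at day 4. NES (nestin), the intermediate filament of neural progenitors, went from 23.7 and 21.9 to 363 and 377 TPM. CDH2 (N-cadherin) went from 14.8 and 15.1 to 227 and 309.9 TPM. DACH1, a transcriptional cofactor, went from 0.267 and 0.212 to 13.7 and 13.4 TPM. PROM1 (CD133) was the only member called lower, from 77.7 and 100.2 to 22.9 and 12.9 TPM, and it overlaps another gene on its strand. Among those not called, PTPRZ1 and SLC1A3, both known from radial glia, stood at 162 and 151 to 151 and 138 TPM and at 58.4 and 36.3 to 53.3 and 28.7 TPM. Of 15 SOX genes, 12 were called higher, 1 was called lower and 2 were not called (median 1.06). SOX1 rose from 0.127 and 0.0316 to 4.71 and 19.6 TPM. SOX5 rose from 0.881 and 0.142 to 17.7 and 18.1 TPM. SOX11 rose from 10.5 and 7.58 to 74.6 and 88 TPM. SOX11 overlaps another gene on its strand.

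Genes of neurons had no common direction, with 5 called higher, 5 called lower and 10 not called among 20 tested and a median of -0.04 (5 higher and 8 lower under median-of-ratios scaling, 7 and 2 of 19 with the TPM as deposited). DLL1, the NOTCH ligand of progenitors leaving the cycle, rose from 1.15 and 2.09 to 48.3 and 87.3 TPM. MAP2, a microtubule-associated protein, rose from 5.45 and 5.86 to 83 and 67.3 TPM. STMN2 and NEFL, which are abundant in differentiated neurons, fell from 20.4 and 31.3 to 7.05 and 9.53 TPM and from 11.2 and 12.9 to 4.94 and 4.86 TPM. NEUROG2, a proneural factor, was not called at 0 and 0.0394 TPM at day 0 and 0.52 and 1.13 TPM at day 4, nor was TUBB3, the neuronal tubulin, at 91.3 and 81.1 TPM at day 0 and 68.4 and 102 TPM at day 4.

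**Figure D2:**
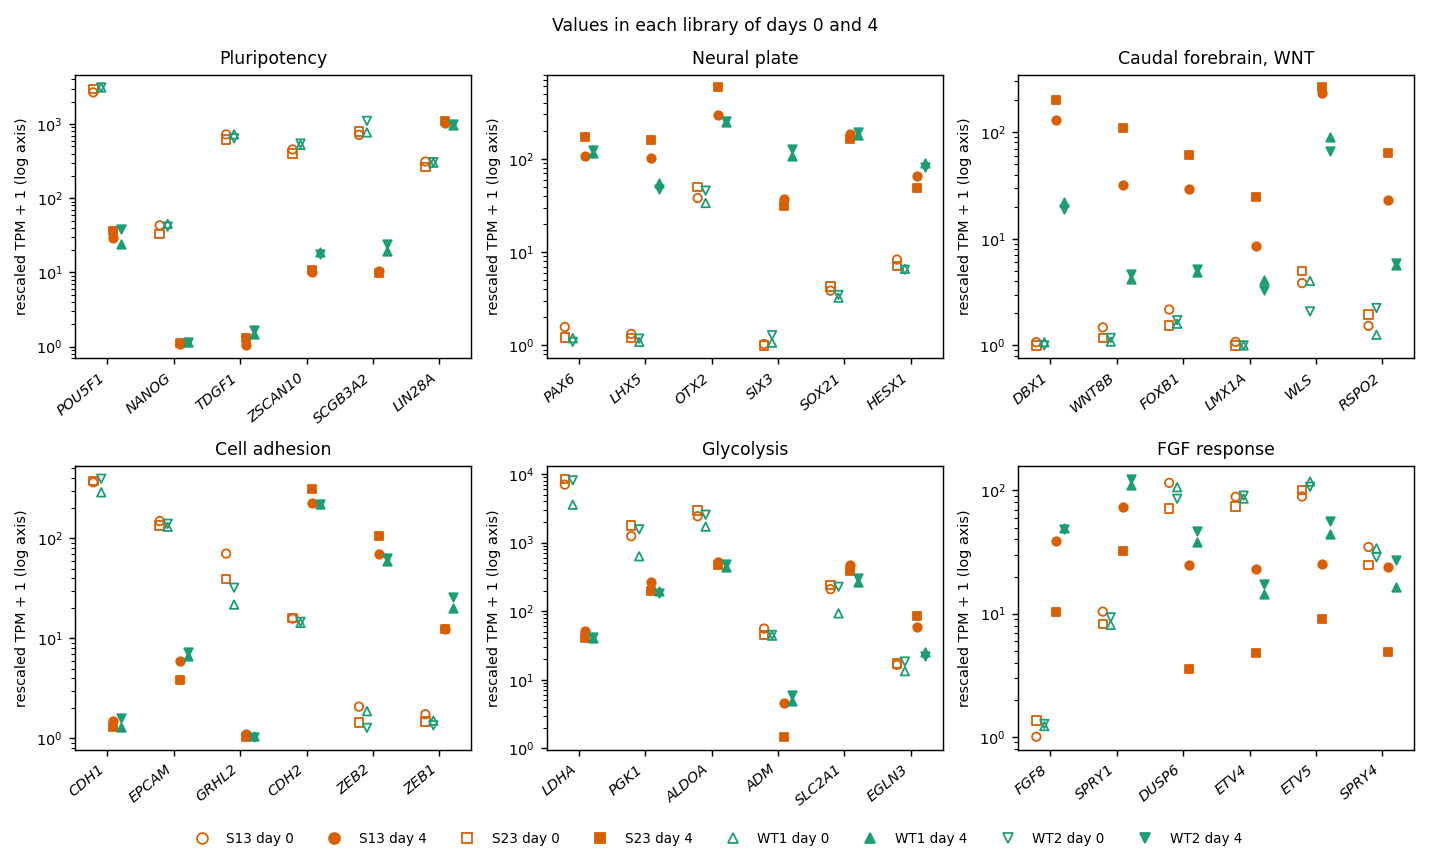
Rescaled TPM + 1 (y axis, log scale) of single genes (x axis) in each library of days 0 and 4, in 6 panels by gene group. Each point is 1 library, open at day 0 and filled at day 4, orange for SOX21-/- and green for wild type; POU5F1, TDGF1 and CDH1 are lower and PAX6, LHX5 and WNT8B higher at day 4 in every library of both genotypes, and the day 4 points of S13 and S23 part in the panel of FGF response genes.

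Regional markers of the forebrain were mostly called higher, on the rostral and on the caudal side. Of 17 rostral forebrain and eye field genes, 13 were called higher, 1 was called lower and 3 were not called (median 3.25). Of 22 genes of caudal forebrain and midline, 16 were called higher, 2 were called lower and 4 were not called (median 1.65). On the rostral side SIX3, a repressor of WNT genes in the anterior neural plate, had 0.0355 and 0 TPM at day 0 and 36.3 and 30.4 TPM at day 4 (log2 fold change 5.07, SE 0.23, limma adjusted p = 4.80e-08). RAX, the eye field homeobox factor, had 0.361 and 1.1 TPM at day 0 and 29.1 and 39.3 TPM at day 4 (log2 fold change 4.37, SE 0.32, limma adjusted p = 1.16e-06). FEZF2, a zinc finger factor of the forebrain, had 0.0968 and 0.0481 TPM at day 0 and 13.4 and 33.3 TPM at day 4 (log2 fold change 4.37, SE 0.34, limma adjusted p = 1.82e-06). In these 3 genes both day 4 libraries stood far above both day 0 libraries.

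On the caudal side WNT8B (chr10:100463040-100483740, plus strand) had 0.477 and 0.172 TPM at day 0 and 30.8 and 108 TPM at day 4 (log2 fold change 5.49, SE 0.49, limma adjusted p = 4.25e-06). The 2 lines differed at day 4 and both stood above both day 0 libraries. At day 8 WNT8B reached 372 and 357 TPM, a comparison that shares the day 4 libraries. In wild type it had 0.0868 and 0.176 TPM at day 0 and 3.19 and 3.67 TPM at day 4. The larger step of the SOX21-/- libraries did not pass the test of the difference over all genes (difference 3.52, SE 0.69, limma adjusted p = 0.0806). Both SOX21-/- values at day 4 lay above both wild-type values. FOXB1 and WLS, described next, had the same order at day 4, with 3.92 and 4.23 TPM of FOXB1 and 89.7 and 65.5 TPM of WLS in wild type. The test of the difference between the steps was not passed by FOXB1 (difference 2.92, SE 0.50, limma adjusted p = 0.0626) or by WLS (difference 1.07, SE 0.46, limma adjusted p = 0.319).

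DBX1 had the largest fold change of the caudal list (log2 fold change 7.28, SE 0.27, limma adjusted p = 1.58e-08). FOXB1, a forkhead factor of the caudal diencephalon, had 1.17 and 0.533 TPM at day 0 and 28.2 and 59.7 TPM at day 4 (log2 fold change 4.53, SE 0.36, limma adjusted p = 1.89e-06). NR2F2 (COUP-TFII), a nuclear receptor of caudal forebrain, had 0.0558 and 0.0408 TPM at day 0 and 23.6 and 34 TPM at day 4 (log2 fold change 4.81, SE 0.20, limma adjusted p = 2.63e-08). NR2F2 overlaps another gene on its strand. LMX1A, a LIM homeobox factor of the cortical hem and roof plate, went from 0.0803 and 0 to 7.54 and 23.4 TPM. EMX2, a homeobox factor of the dorsal telencephalon, went from 0.312 and 0.18 to 5.84 and 23.5 TPM. TCF7L2, a WNT effector, fell from 382 and 435 to 49.8 and 60.4 TPM. BMP7 fell from 22.6 and 42.7 to 11.6 and 4.41 TPM, a call that was lost without S23 of day 4 (log2 fold change -1.35, limma adjusted p = 0.08) and without S23 of day 0 (log2 fold change -1.52, limma adjusted p = 0.0703). Of 26 midbrain and hindbrain genes 6 were tested. PAX2 rose from 0.0274 and 0.0545 to 39.7 and 19.2 TPM. PAX8 rose from 0 and 0 to 9.85 and 0.235 TPM. S13 was the higher line for both. The call of PAX8 was lost without S13 of day 4 (log2 fold change 0.30, limma adjusted p = 0.488) and without either day 0 library, where the adjusted p of limma was 0.12 and 0.121. The value was larger without S23 of day 4 (log2 fold change 3.44, limma adjusted p = 4.81e-05). CYP26A1, a retinoic acid hydroxylase, fell from 23.9 and 24.3 to 2.55 and 1.44 TPM. The other 20, the HOX genes and EN1 and EN2 on the list among them, did not reach 1 TPM in 2 libraries.

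Most of the WNT pathway genes tested were called higher, among ligands, receptors and antagonists. Of 12 tested genes for ligands and their secretion, 8 were called higher, 1 was called lower and 3 were not called (median 0.97). WLS, the carrier that brings WNT proteins to the cell surface, had 2.84 and 3.96 TPM at day 0 and 230.0 and 261 TPM at day 4 (log2 fold change 5.82, SE 0.32, limma adjusted p = 2.08e-07). WNT5B had 1.34 and 0.318 TPM at day 0 and 44.6 and 111 TPM at day 4 (log2 fold change 5.35, SE 0.38, limma adjusted p = 8.91e-07). WNT4 was the ligand called lower, from 3.12 and 3.81 to 0.214 and 0.441 TPM. PORCN, the acyltransferase that lipidates WNT proteins, was not called at 15.2 and 13.3 TPM at day 0 and 12 and 13.4 TPM at day 4. Of 28 receptors and antagonists, 20 were called higher, 5 were called lower and 3 were not called (median 1.26). FZD5, a frizzled receptor of the eye field, rose from 7.54 and 6.57 to 121 and 155 TPM. LGR4, a receptor of R-spondins, rose from 26.2 and 28.9 to 168 and 199 TPM. RSPO2, an R-spondin that raises WNT signalling, rose from 0.526 and 0.944 to 21.9 and 62.3 TPM. SHISA2, which holds back frizzled receptors, rose from 3.43 and 2.1 to 114 and 277 TPM. FRZB, a secreted WNT antagonist, rose from 2 and 1.73 to 106 and 71.5 TPM. LRP5, a WNT co-receptor, fell from 106 and 77.5 to 12.3 and 14.9 TPM. Genes on both sides of the pathway, agonists and antagonists, were thus among those called higher.

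Among 13 canonical WNT target genes, 7 were called higher, 3 were called lower and 3 were not called (median 1.24, but -0.05 with 6 higher and 5 lower of 15 under median-of-ratios scaling). Without genes that overlap another gene or have a named pseudogene 1 was higher and 3 were lower of 9. LEF1, a WNT effector and target, rose from 0.808 and 0.956 to 19.7 and 24.2 TPM. TNFRSF19 (TROY) rose from 0.707 and 0.448 to 24.5 and 40.2 TPM. SP5, a zinc finger target gene, rose from 3.45 and 3.42 to 10.7 and 32.1 TPM, a call lost without S23 of day 4 (log2 fold change 1.40, limma adjusted p = 0.252) and without either day 0 library (limma adjusted p = 0.114 without S13 and 0.116 without S23). AXIN2, the negative-feedback target, rose from 11.4 and 5.23 to 27.4 and 40.6 TPM and overlaps another gene on its strand. DKK1, a secreted WNT antagonist and target, had 0.645 and 0.0521 TPM at day 0 and 1.4 and 28.1 TPM at day 4 (log2 fold change 2.67, SE 0.83, limma adjusted p = 0.015). Its day 4 value was the higher one in S23, and the call was lost without S23 of day 0 (log2 fold change 2.34, limma adjusted p = 0.0828). MYC fell from 43.8 and 41.3 to 12.8 and 9.49 TPM. BAMBI fell from 3.42 and 4.19 to 1.14 and 0.904 TPM. CCND1 was not called at 75.5 and 70.0 TPM at day 0 and 63.9 and 55.9 TPM at day 4.

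Genes of the Nodal and activin pathway went both ways. Of 19 tested genes, 8 were called higher, 10 were called lower and 1 was not called (median -1.02), but the balance was 8 higher and 7 lower of 18 with the TPM as deposited and 8 higher and 5 lower of 13 with a filter at 5 TPM. Co-receptor TDGF1 and FOXH1, the nuclear partner of the Nodal SMADs, fell, FOXH1 from 68.9 and 71.1 to 0.559 and 0.787 TPM (log2 fold change -5.41, SE 0.22, limma adjusted p = 2.63e-08). GDF3, a Nodal-related ligand, fell from 2.45 and 2.92 to 0 and 0 TPM. TGFB1 fell from 18.5 and 14 to 1.96 and 2.19 TPM. Of the receptors, TGFBR1 rose from 18.3 and 15.9 to 71 and 69.1 TPM. ACVR2B rose from 8.37 and 6.51 to 27.4 and 31.5 TPM. SMAD2, a signal transducer, rose from 23.9 and 26.4 to 74.3 and 79.2 TPM. FST (follistatin), an activin antagonist, rose from 14.5 and 8.91 to 66.9 and 103 TPM. NODAL itself was not called and had 0.413 and 0.415 TPM at day 0 and 0.132 and 0.407 TPM at day 4.

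The FGF list had 10 called higher, 10 called lower and 7 not called among 27 tested (median -0.41), and under median-of-ratios scaling 5 higher and 13 lower. Ligand FGF8, made at the anterior neural ridge, had 0 and 0.35 TPM at day 0 and 38.2 and 9.26 TPM at day 4 (log2 fold change 4.11, SE 0.47, limma adjusted p = 2.33e-05). FGF9 had 0 and 0.0808 TPM at day 0 and 12.2 and 12.2 TPM at day 4 (log2 fold change 3.67, SE 0.29, limma adjusted p = 1.89e-06). FGFR4 fell from 73.2 and 59.3 to 11.1 and 18.7 TPM. The ERK-dependent transcription factors ETV4 and ETV5 and the ERK phosphatase DUSP6, which are target genes of FGF signalling, were lower. DUSP6 had 114 and 70.5 TPM at day 0 and 23.6 and 2.56 TPM at day 4 (log2 fold change -3.28, SE 0.70, limma adjusted p = 0.00176). ETV4 had 87.8 and 73 TPM at day 0 and 21.9 and 3.82 TPM at day 4 (log2 fold change -2.95, SE 0.52, limma adjusted p = 5.14e-04). Without S23 of day 4 both decreases were smaller, for DUSP6 with log2 fold change -1.88, limma adjusted p = 0.00447 and for ETV4 with log2 fold change -1.82, limma adjusted p = 8.90e-05. ETV5, which overlaps another gene on its strand, fell from 88.2 and 100.3 to 24.4 and 8.11 TPM. In the opposite direction, SPRY1 and IL17RD, feedback inhibitors of the same pathway, rose from 9.38 and 7.23 to 73 and 30.9 TPM and from 10.7 and 6.84 to 39.3 and 21.2 TPM. In all 5 of these genes S13 was above S23 at day 4.

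BMP pathway genes had 10 called higher, 5 called lower and 9 not called among 24 tested (median 0.55). BMP4 rose from 2.19 and 0.877 to 10.1 and 7.47 TPM. The antagonist GREM1 rose from 0.101 and 0.234 to 4.37 and 2.01 TPM, and BMP7 fell as given above. Of the ID genes, which BMP signals induce, ID2 rose from 164 and 148 to 472 and 430.3 TPM. ID1 fell from 26.7 and 26.5 to 6.16 and 2.58 TPM, a call lost without S23 of day 4 (log2 fold change -1.95, limma adjusted p = 0.112) and without either day 0 library (limma adjusted p = 0.0623 without S13 and 0.0623 without S23). ID3 was not called at 90.4 and 87.1 TPM at day 0 and 48.8 and 26.9 TPM at day 4. NOTCH pathway genes had 17 called higher, 6 called lower and 1 not called among 24 tested (median 1.14). Beside DLK1 and DLL1, the effector HES4 rose from 1.74 and 0.743 to 21.4 and 23 TPM. HES3 rose from 26.7 and 21.3 to 109 and 173 TPM. The ligand-endocytosis ligase MIB1 rose from 10.7 and 10.1 to 39.6 and 43.2 TPM. DLL3, a ligand that inhibits NOTCH within the cell, fell from 8.15 and 8.76 to 1.44 and 1.25 TPM. RFNG (radical fringe) fell from 57.5 and 55.9 to 14.8 and 16.1 TPM.

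Adhesion genes went both ways, with epithelial cadherin lower and neural cadherin higher. The list of 30 had 10 called higher, 14 called lower and 6 not called (median -0.36, and 0.35 with the TPM as deposited). CDH1 (E-cadherin) had 363 and 374 TPM at day 0 and 0.478 and 0.313 TPM at day 4 (log2 fold change -8.05, SE 0.20, limma adjusted p = 2.02e-09). EPCAM, an epithelial adhesion molecule, had 148 and 134 TPM at day 0 and 5 and 2.85 TPM at day 4 (log2 fold change -4.89, SE 0.21, limma adjusted p = 3.75e-08). GRHL2, a transcription factor that maintains epithelia, had 69.5 and 38.3 TPM at day 0 and 0.111 and 0.0401 TPM at day 4 (log2 fold change -5.61, SE 0.32, limma adjusted p = 2.53e-07). ESRP1, an epithelial splicing regulator, fell from 62.3 and 52.6 to 1.79 and 0.246 TPM. CLDN7, a tight junction claudin that overlaps another gene on its strand, fell from 67.6 and 73.8 to 0 and 0.457 TPM. ZEB2 and ZEB1, zinc finger repressors of CDH1 and of other epithelial genes, rose. ZEB2 had 1.08 and 0.448 TPM at day 0 and 69.5 and 104 TPM at day 4 (log2 fold change 5.63, SE 0.25, limma adjusted p = 4.19e-08). ZEB1 had 0.746 and 0.479 TPM at day 0 and 11.3 and 11.3 TPM at day 4 (log2 fold change 2.94, SE 0.19, limma adjusted p = 4.53e-07). NCAM1, the neural adhesion molecule, rose from 5.72 and 2.84 to 36.8 and 40.8 TPM. CDH6 rose from 0.644 and 0.797 to 36.5 and 9.01 TPM. CDH6 overlaps another gene on its strand.

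ZEB proteins bind the E-box CACCTG, so the 250 bases before the RefSeq start site of each gene (GRCh38.p14) were searched for CACCTG and, for the other strand, CAGGTG. Of the 14809 genes tested 11289 had a promoter in the table, and 16.1% of these held the motif. It was found in 15.1% of 478 matched genes called higher at least 4-fold and in 21.1% of 546 called lower at least 4-fold. Among the 14 adhesion genes called lower 8 were matched and 2 held it. They are RAB25, a small GTPase of epithelial recycling endosomes (47 and 40.1 to 14.2 and 13.8 TPM), and CRB3, an apical polarity protein (11 and 10.4 to 0.996 and 0.178 TPM). AP1M2, the epithelial adaptor subunit, was chosen after its values were seen (209 and 232 to 1.01 and 1.54 TPM, log2 fold change -6.62). The 3 promoters are shown because they hold the motif upstream of epithelial genes that fell, with the motif on either strand in capitals. CRB3 lies at chr19:6464021-6464270, plus strand, with 1 match on the printed strand and 4 on the other. AP1M2 lies at chr19:10587313-10587562, minus strand, with 3 and 0. RAB25 lies at chr1:156060910-156061159, plus strand, with 1 and 0. A match is a description of letters and not a measured binding site.
CRB3: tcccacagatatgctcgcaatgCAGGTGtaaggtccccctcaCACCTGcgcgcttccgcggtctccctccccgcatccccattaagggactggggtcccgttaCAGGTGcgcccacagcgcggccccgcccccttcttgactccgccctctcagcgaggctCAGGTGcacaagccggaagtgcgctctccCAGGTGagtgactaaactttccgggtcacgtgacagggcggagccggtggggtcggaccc
AP1M2: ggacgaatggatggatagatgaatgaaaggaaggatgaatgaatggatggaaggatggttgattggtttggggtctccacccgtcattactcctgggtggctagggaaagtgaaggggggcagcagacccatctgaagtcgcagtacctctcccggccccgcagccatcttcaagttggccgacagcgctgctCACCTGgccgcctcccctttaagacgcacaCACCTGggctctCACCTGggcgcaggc
RAB25: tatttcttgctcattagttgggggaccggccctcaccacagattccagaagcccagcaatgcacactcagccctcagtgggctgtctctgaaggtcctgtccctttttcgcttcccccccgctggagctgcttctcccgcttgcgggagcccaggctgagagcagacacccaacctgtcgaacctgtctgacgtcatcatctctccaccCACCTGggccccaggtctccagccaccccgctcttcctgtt

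Matrix and guidance genes had 17 called higher, 10 called lower and 7 not called among 34 tested (median 0.63). TNC (tenascin C) rose from 2.21 and 2.89 to 73.1 and 88 TPM. The ephrin receptor EPHA4 rose from 14.6 and 16.1 to 265 and 300.5 TPM. EPHA7 rose from 1.75 and 1.67 to 34 and 39.4 TPM. COL2A1 rose from 7.56 and 6.97 to 78.4 and 99 TPM. NTN1 (netrin 1), a guidance cue, rose from 0.358 and 0.351 to 10.3 and 16.5 TPM. COL1A1, the fibrillar collagen of mesenchyme, fell from 33 and 35 to 2.64 and 0.783 TPM. SPARC, a matrix glycoprotein, fell from 877 and 893 to 334 and 277 TPM.

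Most glycolysis and hypoxia-response genes were called lower. Of 32 tested, 3 were called higher, 20 were called lower and 9 were not called, with a median of -1.12. The decrease was at least 4-fold for 11, against 5.43% of all genes tested. LDHA, which turns pyruvate into lactate, had 6991 and 8523 TPM at day 0 and 51.2 and 39.1 TPM at day 4 (log2 fold change -7.40, SE 0.30, limma adjusted p = 2.45e-08). Its 6 annotated processed pseudogenes together were under 2 TPM as deposited, before rescaling, in each of the 4 libraries. ADM (adrenomedullin), a hypoxia-induced peptide, had 54.8 and 43.7 TPM at day 0 and 3.66 and 0.475 TPM at day 4 (log2 fold change -4.25, SE 0.44, limma adjusted p = 1.29e-05). SLC16A3 (MCT4), the lactate exporter, fell from 44.1 and 56.1 to 3.09 and 4.07 TPM and overlaps another gene on its strand. PDK1, which holds pyruvate back from oxidation in mitochondria, fell from 62.2 and 56.9 to 11.2 and 3.8 TPM. HK1 (hexokinase 1) fell from 179.9 and 188 to 28.9 and 22.4 TPM. Called higher was SLC2A1 (GLUT1), the glucose carrier, from 208 and 239 to 469.9 and 386 TPM, with an overlap on its strand. That call was lost without S13 of day 0 (log2 fold change 0.83, limma adjusted p = 0.0955) and without S13 of day 4 (log2 fold change 0.79, limma adjusted p = 0.109). PGAM1, a glycolytic mutase, rose from 344 and 402 to 688 and 582 TPM. EGLN3, an oxygen sensor, rose from 15.5 and 16.2 to 57.9 and 85.4 TPM. GAPDH (3118 and 3466 to 3761 and 3557 TPM) and ENO1 (1128 and 1324 to 1404 and 1224 TPM) were not called. GAPDH overlaps the antisense gene RP5-940J5.9, which was listed at 1449.8 and 1629 TPM at day 0 and 1.41 and 1.61 TPM at day 4. Since strand use is unknown, the value of GAPDH is uncertain. The wild-type libraries of day 0 differed for LDHA (3569 and 8069.8 TPM) and had 39.7 and 41.4 TPM at day 4.

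Hypoxia-inducible factors bind the core ACGTG, which was searched for on both strands (CACGT on the other) in the same promoters. It was found in 22.6% of the 11289, in 19.2% of the matched genes called higher at least 4-fold and in 22.9% of those called lower at least 4-fold. Of the 20 glycolysis and hypoxia genes called lower 17 were matched and 8 of these (47.1%) held it: GPI, ALDOA, ALDOC, PGK1, ENO2, LDHA, BNIP3 and ANKRD37. The list was itself chosen for glycolysis and hypoxia response, and the share among its members not called lower was not computed. The 47.1% therefore cannot be tied to the decrease. LDHA and PGK1, the phosphoglycerate kinase (1238 and 1767 to 261 and 197 TPM, with an overlapping gene on its strand), are shown as glycolytic enzymes that fell and have matches on both strands, in capitals. LDHA lies at chr11:18394313-18394562, plus strand, with 2 matches on the printed strand and 3 on the other. Each match on the printed strand lies within a CACGTG, which reads the same on both strands and is therefore counted on each. PGK1 lies at chrX:78103998-78104247, plus strand, with 1 and 1.
LDHA: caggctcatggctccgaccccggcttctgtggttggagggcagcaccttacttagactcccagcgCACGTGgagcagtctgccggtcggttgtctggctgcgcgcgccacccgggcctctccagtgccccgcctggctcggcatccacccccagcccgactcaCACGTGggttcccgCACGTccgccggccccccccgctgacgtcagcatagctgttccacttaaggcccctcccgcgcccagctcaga
PGK1: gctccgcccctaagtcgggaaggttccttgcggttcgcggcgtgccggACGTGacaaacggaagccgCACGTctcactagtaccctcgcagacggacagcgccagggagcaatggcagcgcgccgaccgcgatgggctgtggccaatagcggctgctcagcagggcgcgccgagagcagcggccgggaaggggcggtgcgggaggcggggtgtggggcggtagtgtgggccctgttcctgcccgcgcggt

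Among chromatin and RNA regulators most genes tested were called higher. Of 18 genes of DNA methylation and of the LIN28 and let-7 axis, 12 were called higher, 4 were called lower and 2 were not called (median 0.88). LIN28A, which blocks let-7 maturation, had 312 and 262 TPM at day 0 and 1019.6 and 1094 TPM at day 4 (log2 fold change 1.88, SE 0.10, limma adjusted p = 1.49e-07). LIN28B had 32.1 and 29.2 TPM at day 0 and 117 and 97.5 TPM at day 4 (log2 fold change 1.77, SE 0.12, limma adjusted p = 8.13e-07). TRIM71, a let-7 target, rose from 36.8 and 37.7 to 102 and 118 TPM. UHRF1, which guides maintenance methylation, rose from 12.8 and 9.44 to 71.9 and 69.2 TPM. DNMT1, which overlaps another gene on its strand, fell from 251 and 205 to 122 and 131 TPM. The de novo methyltransferase DNMT3B fell from 183 and 160.3 to 151 and 124 TPM, but was higher at day 4 with the TPM as deposited, and its call was lost without S13 of day 0 (log2 fold change -0.23, limma adjusted p = 0.192) and without S23 of day 4 (log2 fold change -0.18, limma adjusted p = 0.256). Both LIN28 genes thus were higher at day 4, alongside the decrease of POU5F1 and NANOG. Of 26 heterochromatin and polycomb genes, 17 were called higher, 5 were called lower and 4 were not called (median 1.02). The polycomb subunit CBX2 rose from 24.9 and 25.4 to 119 and 137 TPM. EZH2 rose from 28.4 and 21.4 to 116 and 113 TPM. PHC1, another subunit, fell from 1041 and 971 to 45.7 and 62.6 TPM (log2 fold change -4.21, SE 0.14, limma adjusted p = 1.00e-08). JARID2, a polycomb cofactor, fell from 59.6 and 57.4 to 28.9 and 25 TPM.

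DNA replication genes and cyclins had 19 called higher, 7 called lower and 8 not called among 34 tested (median 0.61), but 12 higher and 15 lower under median-of-ratios scaling. The list has no direction that held under both. PCNA, the replication clamp, rose from 135 and 140.3 to 454 and 373 TPM. CCNA2 rose from 40.2 and 40.6 to 113 and 103 TPM. TYMS rose from 97.1 and 91.4 to 258 and 211 TPM. PLK1, the mitotic kinase, fell from 199 and 207 to 93.1 and 90.4 TPM. CDT1, a licensing factor, fell from 86.7 and 88.4 to 47.1 and 42.7 TPM. MKI67 was not called at 45.9 and 41.8 TPM at day 0 and 47 and 45.2 TPM at day 4.

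Zinc finger genes with ZNF symbols had 362 called higher, 22 called lower and 87 not called among 471 tested, with a median of 1.14 against 0.42 for all genes and 44 higher by at least 4-fold. ZNF521 rose from 13.4 and 9.77 to 131 and 158 TPM. ZNF503 rose from 0.0782 and 0.0282 to 7.65 and 14.7 TPM. ZNF417 rose from 3.29 and 2.86 to 33 and 44.7 TPM. ZNF503 and ZNF417 overlap other genes on their strand. ZNF282 fell from 85.4 and 103 to 17 and 18.4 TPM. Over 5 groups of tested genes by exonic length the median log2 fold change lay between 0.38 and 0.46, and in wild type between 0.44 in the shortest and 0.63 in the longest genes. In wild type 397 of the 471 were called higher and the median was 1.39.

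Cytosolic ribosomal protein genes had 58 called higher, 16 called lower and 10 not called among 84 tested (median 0.69), but among the 5 with no overlap on their strand and no named pseudogene 0 were higher and 2 lower. Single members moved far in opposite directions. RPL14 had 17108 and 16693 TPM at day 0 and 1314 and 1456 TPM at day 4 (log2 fold change -3.61, SE 0.07, limma adjusted p = 8.40e-10). RPL36A had 530.0 and 644 TPM at day 0 and 5465 and 5403 TPM at day 4 (log2 fold change 3.21, SE 0.11, limma adjusted p = 1.16e-08). Their wild-type libraries had 17073 and 16557 TPM of RPL14 at day 0 and 1253 and 1254 TPM at day 4, and 535 and 537 TPM of RPL36A at day 0 and 5579.6 and 4762 TPM at day 4. The mRNA levels of these 2 genes for proteins of 1 ribosomal subunit moved in opposite directions in both genotypes. The library makeup differed between the same days, and its part in this was not tested.

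Many markers of other lineages were below the filter of 1 TPM in 2 libraries. Of 26 mesoderm and endoderm genes 8 were tested, with 3 called higher, 3 called lower and 2 not called (3 and 4 under median-of-ratios scaling), and CXCR4 (1.57 and 1.79 to 13.6 and 23.1 TPM) and GSC (0.0796 and 0.158 to 6.19 and 4.94 TPM) rose the most. Of 24 neural crest and placode genes 17 were tested, with 5 called higher, 4 called lower and 8 not called (4 higher and 5 lower under median-of-ratios scaling). FOXD3, which pluripotent cells also express, fell from 8.16 and 5.81 to 0.143 and 0.0353 TPM. PAX3 was not called at 0.773 and 0.395 TPM at day 0 and 12.5 and 0.751 TPM at day 4, with S13 the higher line. The list for amnion, trophoblast and surface ectoderm had 2 called higher, 6 called lower and 3 not called among 11 tested of 23 (2 and 1 of 10 without overlapping genes or genes with a named pseudogene). Its largest decreases were in KRT7 (28 and 38.2 to 0.0467 and 0.0987 TPM), KRT8 (787 and 747 to 92.4 and 66.6 TPM), S100A10 (125 and 139.6 to 1.43 and 1.44 TPM) and GABRP (152 and 169 to 0 and 2.83 TPM). The list for blood, endothelium and fibroblast had 3 called higher, 3 called lower and 5 not called among 11 tested of 20, with COL1A1 and COL1A2 lower.

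The wild-type step, measured in libraries that the SOX21-/- step does not share, had fold changes that correlated with those of the SOX21-/- step. Across the 14809 genes the 2 sets of fold changes had a Pearson correlation of 0.929 and a Spearman rho of 0.905. This is a description, since genes are not independent replicates and both steps cross the same change of library makeup. Of the 6832 genes higher in the SOX21-/- step 6345 (92.9%) were higher in wild type, which is 82.9% of the 7651 genes called higher there (51.7% of those tested, of which 70.9% were called in all). Of the 3192 lower genes 2507 (78.5%) were lower in wild type, which is 88.0% of the 2848 called lower there (19.2%). 27 genes were called in opposite directions. Both steps had their neural plate list higher (median 3.29 in SOX21-/- and 3.06 in wild type) and their core pluripotency list lower (-2.10 and -2.77). The canonical WNT target list had medians of 1.24 and 0.07, with 7 of 13 higher in SOX21-/- and 4 of 13 in wild type. None of its members passed the test of the difference between the steps.

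The difference between the steps passed the test for 26 genes (0.176%), 10 with the larger value in SOX21-/- (0.0675%) and 16 with the smaller (0.108%). At an unadjusted p under 0.05 there were 2157. With the line label as a replicate block none of the 26 passed (0 genes in all, 2153 at an unadjusted p under 0.05), and the adjusted p of limma for the 13 genes named below was 0.0543 to 0.102. The number also depends on single libraries: it was 0 without either of the wild-type libraries of day 4 and 85 (14 and 71) without wild-type replicate 2 of day 0. DBX1 rose more in SOX21-/- than in wild type, where it had 0.0715 and 0 TPM at day 0 and 21 and 17.9 TPM at day 4 (difference 2.98, SE 0.38, limma adjusted p = 0.0302). TMEM132C had 0.0344 and 0.171 TPM at day 0 and 10.7 and 17.9 TPM at day 4, against 0.0519 and 0.104 TPM at day 0 and 0.629 and 0.67 TPM at day 4 in wild type (difference 3.14, SE 0.34, limma adjusted p = 0.012). LHX2, a LIM homeobox factor of the eye field and cortex, rose less, with 0.451 and 0.361 TPM at day 0 and 21 and 23.5 TPM at day 4, against 0.239 and 0.368 TPM at day 0 and 69.2 and 91 TPM at day 4 in wild type (difference -1.90, SE 0.26, limma adjusted p = 0.0315). DDIT4, a stress-induced inhibitor of mTORC1, had 86.8 and 87.6 TPM at day 0 and 16 and 23.5 TPM at day 4, against 35.9 and 53.3 TPM at day 0 and 40.9 and 49.7 TPM at day 4 in wild type (difference -2.15, SE 0.29, limma adjusted p = 0.0315). For DBX1, TMEM132C and LHX2 the genotypes were all near 0 at day 0 and separate at day 4. For DDIT4 the SOX21-/- libraries were the higher ones at day 0 and the lower ones at day 4. FSIP1 (difference 4.38, SE 0.69, limma adjusted p = 0.0477) and SCNN1D (difference -4.31, SE 0.50, limma adjusted p = 0.0173) already differed at day 0. There FSIP1 had 18.1 and 17.9 TPM in wild type and 0.265 and 0.189 TPM in SOX21-/-, and SCNN1D had 1.39 and 1.18 TPM and 24 and 23.6 TPM.

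The log2 difference was also positive for IGDCC3 (1.76) and MYCL (1.75) and negative for VPS9D1 (-2.52), MELTF (-2.25) and PLEKHG5 (-2.05). MELTF was called lower in SOX21-/- (log2 fold change -1.01) and higher in wild type (1.24). PLEKHG5 was called lower in SOX21-/- (-1.67) and not called in wild type (0.38). VPS9D1 was not called in SOX21-/- (-0.66) and was called higher in wild type (1.85). For VPS9D1, PLEKHG5 and MELTF both SOX21-/- values already lay above both wild-type values at day 0, a difference that was not tested. There VPS9D1 had 2.999 and 2.972 TPM in wild type and 13.2 and 12.04 TPM in SOX21-/-. PLEKHG5 had 6.24 and 6.64 TPM and 12.9 and 18.8 TPM, and MELTF 1.097 and 1.71 TPM and 2.89 and 2.2 TPM. At day 4 both SOX21-/- values of each gene lay below both wild-type values. Of the listed genes, LRRN1, a neural leucine-rich repeat protein (1.52), and MVD, a sterol synthesis enzyme (-1.16), passed as well.

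**Figure D3:**
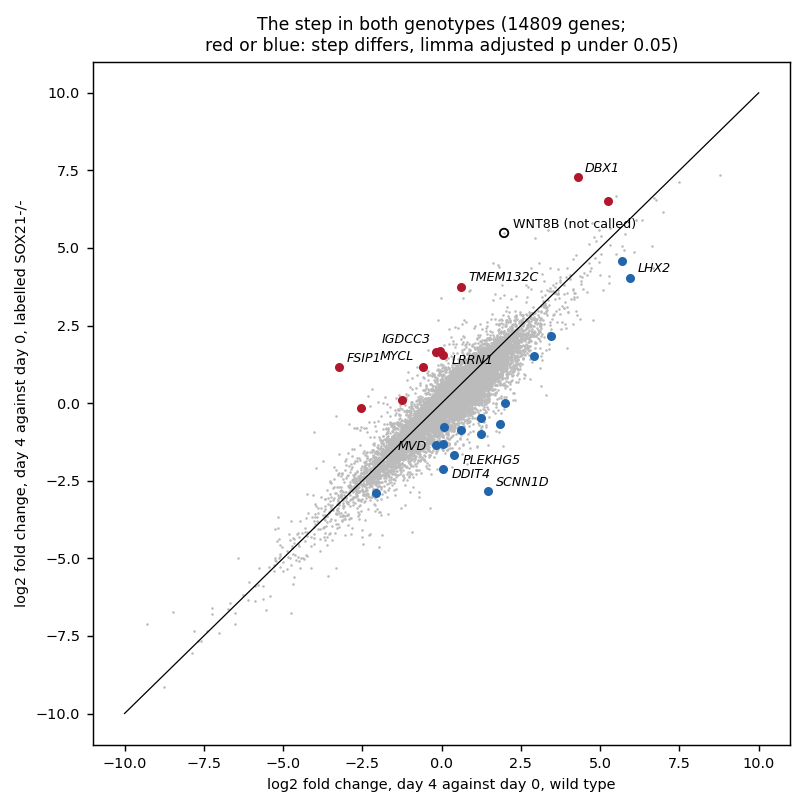
Log2 fold change from day 0 to day 4 in wild type (x axis) and in SOX21-/- (y axis), both on log2 of rescaled TPM + 1, for 14809 genes (grey points), with the line of equal change. Red and blue points are the 26 genes whose steps differ by the limma test; WNT8B lies above the line and was not called.

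The S13 and S23 lines took the step to different extents for some genes. Over all genes tested 1284 (8.67%) had steps more than 1 log2 unit apart, and the share was 4 of 6 (66.7%) for the midbrain and hindbrain list, 7 of 22 (31.8%) for the caudal forebrain list, 8 of 27 (29.6%) for the FGF list and 12 of 25 (48%) for sterol synthesis. It was 23.1% to 27.3% for the lists of neural plate, rostral forebrain, neural crest, mesoderm, blood and WNT targets. With 1 library per line and day these differences have no replicate check, and the genes named here were chosen after their values were seen. WNT8B rose by 4.43 log2 units in S13 and by 6.54 in S23, FOXB1 by 3.75 and 5.31. LMX1A rose by 2.98 and 4.61, EMX2 by 2.38 and 4.38, and DKK1 by 0.55 and 4.79. FGF8 went the other way, with 5.29 in S13 and 2.93 in S23. 3 FGF target genes also had the lower step in S23, DUSP6 with -2.23 and -4.33, ETV4 with -1.95 and -3.94 and SPRY4 with -0.55 and -2.36. These genes do not stand for their lists: the step was the higher one in S23 for 15 of the 22 caudal forebrain genes, 7 of 12 WNT ligand and secretion genes, 17 of 28 WNT receptors and antagonists, 7 of 13 canonical WNT targets and 10 of 27 FGF genes, against 8413 of all 14809. Of the 15 core pluripotency factors 1 (6.67%) differed by over 1 log2 unit, but 13 had the higher step in S23. Of the 24 genes of the human pluripotent state 3 (12.5%) differed by over 1 log2 unit and 10 had the higher step in S23.

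**Figure D4:**
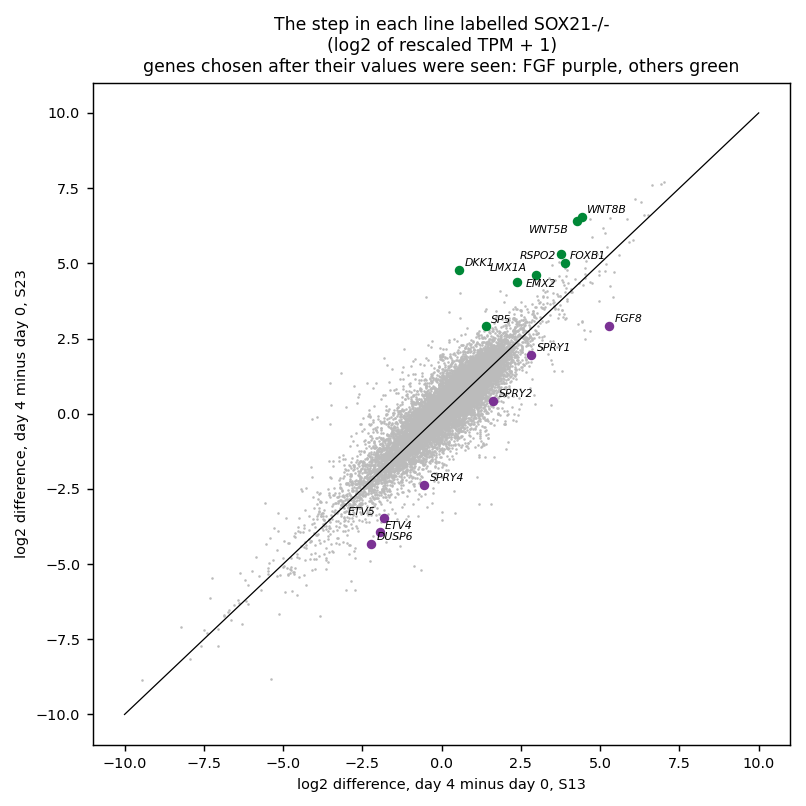
Log2 difference between day 4 and day 0 in S13 (x axis) and in S23 (y axis), on log2 of rescaled TPM + 1, with 1 library per line and day, for 14809 genes. The coloured points are genes chosen after their values were seen, not whole lists; those in green lie above the line of equal change and those in purple, FGF8 and FGF response genes, below it; DKK1 is the farthest, at 0.55 in S13 and 4.79 in S23.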

How the data were processed

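Bulk RNA-seq of 12 libraries was quantified per gene by the authors as TPM, and all gene types stand in 1 deposited table of 58219 genes. The submitters' processing notes name Salmon 0.8.2, CASAVA 1.7 and hg38. No read counts, depth or strand setting is given in the sources used here, so no counting error could be computed. Groups come from the sample labels, and 0 columns of other series were present.

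Nuclear protein-coding genes were rescaled to 1000000 TPM per library, since day 0 differs in gene-type makeup. Genes with at least 1 TPM in at least 2 libraries were kept. The log2(TPM + 1) values of all 12 libraries were fitted with limma 3.58.1 in R 4.3.3, with 1 mean per genotype and day, moderated variance with trend, 6 residual degrees of freedom, and two-sided tests adjusted over all 14809 genes. Only 2 libraries per group limit the precision. A tested p depends on a spread shared by all groups. The script was tested on simulated data. Overlaps between exons were taken from GENCODE v29, in which 14792 of the tested genes were found.

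The members and gene lists were chosen with earlier results of these data known. Named are SOX21, WNT8B, the 15 largest calls each way with a mean of at least 5 TPM and groups that do not overlap, the 5 largest differences between the steps each way, list members called, up to 5 per list each way, and members that were not called where the text gives their values. Genes outside this rule were chosen after their values were seen: AP1M2, RAB25, CRB3, PGK1, ZNF282 and the genes by which S13 and S23 differ. Lists are described by counts and medians, without a set test. Promoter sequences (GRCh38.p14) are from RefSeq. A few genes the rule would name are not reported here.

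Replicate numbers are shared between days by the names S13 and S23. The differences between S13 and S23 at day 0 and at day 4 had a correlation of -0.03 across genes, and at day 4 and at day 8 one of 0.208. Alternatives covered the pseudocount, the filter, the scaling, the fit, the block, gene selection and each replicate left out.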

Additional observations from a re-analysis of the deposited data

Results flagged for a closer look

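The step from day 0 to day 4 differed between SOX21-/- and wild type for the 13 genes named above for that difference. The test was of the difference itself, in the fit over all genes (limma adjusted p under 0.05). With the line label as a replicate block none of the 13 passed, at adjusted p of 0.0543 to 0.102. The log2 differences, SOX21-/- minus wild type, were positive for FSIP1 (4.38), TMEM132C (3.14), DBX1 (2.98), IGDCC3 (1.76), MYCL (1.75) and LRRN1 (1.52). They were negative for SCNN1D (-4.31), VPS9D1 (-2.52), MELTF (-2.25), DDIT4 (-2.15), PLEKHG5 (-2.05), LHX2 (-1.90) and MVD (-1.16). The readthrough gene ATP6V1G2-DDX39B, named above among the largest increases, also passed (difference 1.26, SE 0.20, limma adjusted p = 0.0477). It overlaps its parts on the same strand and did not pass with the line label as a replicate block either. Among the 13, FSIP1 and PLEKHG5 also overlap other genes on their strand, so their values are uncertain too.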

How the results depend on the processing

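The SOX21-/- step had 6832 genes higher and 3192 lower; it had 8831 and 1775 with the TPM as deposited, 4612 and 4855 under median-of-ratios scaling, and 1670 and 1104 when tested against a 2-fold change. With only genes without exon overlap on either strand or a named pseudogene it had 3151 and 1693, of 7950 tested. Fewer genes were tested there, and the share called was also lower, at 60.9% against 67.7%. Leaving out 1 SOX21-/- library gave 6024 to 6435 higher and 2811 to 2986 lower. The median over all genes was 0.42, against 0.90, 0.0014 and 0.17 with deposited TPM, median-of-ratios and quantile scaling. The wild-type step (7651 and 2848) had 1547 lower with deposited TPM, 4506 and 4886 under median-of-ratios scaling, 2265 and 993 against a 2-fold change, and 3341 and 1596 without overlaps or pseudogenes. The SOX21-/- step from day 4 to day 8 (3891 and 1628) had 2426 and 2746 under median-of-ratios scaling and 2353 and 2691 under quantile normalization. Pseudocount, filter, moderation and random-effect settings left these counts within 1.5 times.

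The difference between the steps (10 higher, 16 lower) had 6 and 1 without a filter, 8 and 3 under median-of-ratios scaling, 13 and 9 under quantile normalization, 6 and 10 with pseudogenes added to their parents, 8 and 5 without the variance trend, 3 and 1 with only days 0 and 4, 0 and 0 against a 2-fold change, 7 and 5 without same-strand overlaps or named pseudogenes, and 2 and 1 without overlaps on either strand. Leaving out 1 library gave 0 to 14 higher and 0 to 71 lower, 71 without wild-type replicate 2 of day 0, 7 without S13 of day 0, and 1 and 0 without S23 of day 0. The cause of these changes was not tested.

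With the line label as a replicate block the SOX21-/- step had 6789 higher and 3184 lower and the difference between the steps 0 and 0, at 2153 genes with an unadjusted p under 0.05. The deviations of S13 from S23 at day 0 and day 4 had a correlation of -0.03 and those at day 4 and day 8 one of 0.208, against -0.015 in wild type, so a shared number is not shown to pair day 0 with day 4.

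Of the named genes, DNMT3B changed direction with the TPM as deposited (log2 fold change 0.30). Members of the Nodal list called lower were 5 with a filter at 5 TPM, 7 with deposited TPM, 5 against a 2-fold change and 5 without overlaps, each below those called higher. Called higher were 4 of the neural crest list under median-of-ratios scaling, 12 of the replication list under it, 1 of the WNT target list without overlaps, and 0 of the ribosomal list in both selections without overlaps, each below those called lower; 1 of the amnion list was called lower without overlaps, against 2 higher. Depth is unknown from TPM, and what differs between day 0 and day 4 libraries in makeup cannot be told apart from the day.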

Other observations

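Long noncoding genes were not part of the comparison above and were examined after the data had been seen, in a fit of 25522 genes. Of 4891 lincRNA and antisense genes tested, 1307 were called higher and 525 lower from day 0 to day 4 in SOX21-/- (37.5%, limma), with a median log2 fold change of 0.48. LHX5-AS1, which overlaps LHX5 on the other strand, rose with its neighbour, from 0.296 and 0.881 to 182 and 304 TPM (log2 fold change 7.24, SE 0.30, limma adjusted p = 5.09e-07). SOX21-AS1, a neighbour of SOX21 on the other strand, rose from 1.46 and 1.3 to 133 and 117 TPM (log2 fold change 5.72, SE 0.17, limma adjusted p = 8.51e-08). CRNDE, a lincRNA of neural progenitors and tumours, rose from 2.55 and 3.82 to 103 and 156 TPM (log2 fold change 4.95, SE 0.26, limma adjusted p = 1.67e-06). Since it is not known whether quantification used strand, an antisense gene and its partner cannot be told apart where their exons overlap.

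Several of the noncoding genes with the largest decreases are annotated opposite a coding gene, with ACLY, CALR and GAPDH among these coding genes. RP11-3P17.5, a lincRNA, instead lies opposite the pseudogene RPL23AP42. It was listed at 5586 and 6367 TPM at day 0 and at 0 in both day 4 libraries. RP5-940J5.9, opposite GAPDH, had 1449.8 and 1629 TPM at day 0 and 1.41 and 1.61 TPM at day 4, while GAPDH itself was not called. ERVH-1, an endogenous retroviral transcript without an annotated overlap on the other strand, fell from 529 and 589.7 to 0.679 and 0.515 TPM.

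Sterol synthesis genes differed between the lines. Of 25 tested, 23 had the higher step in S23, against 8413 of all 14809 genes tested. For 12 (48%) the steps were over 1 log2 unit apart, against 8.67% of all genes tested. The medians of the list were -0.60 in S13 and 0.37 in S23. HMGCS1, an enzyme of the mevalonate pathway, stepped by 0.28 in S13 and 1.58 in S23. With 1 library per line and day this has no replicate check.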
